A study of Mus musculus with 4 samples.

Results

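The Wnt pathway genes described here are the Wnt ligands, Frizzled receptors, Dickkopf (Dkk) and secreted Frizzled-related (Sfrp) inhibitors and R-spondins, taken by their symbols, together with a list of receptors, intracellular components and target genes. The rule named 67 genes, of which 65 had at least 1 probe set with that single symbol, out of 18194 genes on the array. Ephb2 and Tcf7 had no such probe set in the annotation used here and were not analysed. Each gene was represented by its probe set of highest mean. At least 1 array reached a log2 value of 6, the floor used for comparisons, for 38 of the 65 members and for 11871 of all genes. The other 27 members are given by their values alone.

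Colon mucosa was collected by scraping from 129S6/SvEv mice aged 5 weeks, and its total RNA was hybridised to Affymetrix mouse arrays, 1 array per genotype. The first genotype was VhlΔIE/Apcmin/+, with Vhl deleted in the intestinal epithelium and the Min mutation of Apc (5 mice in the design text). Mice with the Min mutation are an intestinal tumour model. The second was VhlF/F/Apcmin/+, with floxed Vhl and the same mutation (3 mice). VhlΔIE mice carried the deletion alone (3 mice) and VhlF/F mice the floxed alleles alone (4 mice). All 4 genotypes thus carried modified Vhl alleles. The labels do not name the Cre driver or state pooling of the RNA. With 1 array per genotype no difference has a replicate check, no p-value can be given, and the number of arrays limits the precision. Values are RMA log2 values, so a difference of 1 is a 2-fold difference.

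Wnt proteins bind Frizzled receptors and the co-receptors Lrp5 and Lrp6. This disables a complex of Apc, Axin and Gsk3b that otherwise marks beta-catenin for degradation, and beta-catenin then activates target genes with transcription factors of the Tcf and Lef family. R-spondins strengthen the signal by binding Lgr receptors and removing Rnf43 and Znrf3, ligases that take Frizzled receptors off the cell surface. In the colon the pathway maintains the stem cells at the crypt base, and much of its ligand supply comes from stromal cells under the epithelium. Vhl is the substrate receptor of the ligase that degrades hypoxia-inducible factors, and the comparisons address how its loss and the Apc mutation, alone or together, go with the levels of these genes.

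The label checks bear on every comparison. Vhl read 6.56 in the Vhl deleted Apc mutant array and 7.03 in the Vhl deleted array, against 8.17 on the Vhl floxed Apc mutant array and 8.40 in the Vhl floxed array. The Vhl deleted arrays gave 7.41 to 9.95 on the 4 control probe sets for Cre, against 2.97 to 4.45 with floxed Vhl. All 14 markers of colon epithelium lay above the floor, with a mean of 13.23 to 13.36 in every array. With Vhl deletion, 7 were higher with and 8 without the Apc mutation, beside 46.5% and 46.6% of all genes. The largest differences were those of Slc26a3, lower by 0.76 and 0.69, and Car4, lower by 0.72 and 0.63. Xist, which silences one X chromosome in females, read 6.25 and 5.58 in the Vhl deleted arrays with and without the Apc mutation, against 11.83 and 11.37 in the Vhl floxed arrays, so sex makeup and Vhl status cannot be told apart. Hepatocyte markers averaged 5.61 to 5.72 in the other arrays and 8.79 in the Vhl floxed array, the control of 2 comparisons. The part of liver RNA in the differences was not tested.

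Few Wnt pathway genes were 2-fold apart in the comparisons made here. With Vhl deletion and no Apc mutation, 1 of 38 members was at least 2-fold higher, Sfrp2, beside 2.27% of all genes. In the same comparison 1 was at least 2-fold lower, Wnt8b, beside 1.6% of all genes. With the Apc mutation, Vhl deletion left 0 members at least 2-fold higher, beside 2.82% of all genes, and again Wnt8b lower, beside 1.52%. Against the background shares, these counts do not mark the members out. Wnt8b was the 1 member at least 2-fold lower in both backgrounds, where 0.733% of all genes were, and 0 members were higher in both, where 1.58% of all genes were. The median difference of the members was -0.04 without and -0.03 with the Apc mutation, and that of all genes -0.02 and -0.02.

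**Figure D1:**
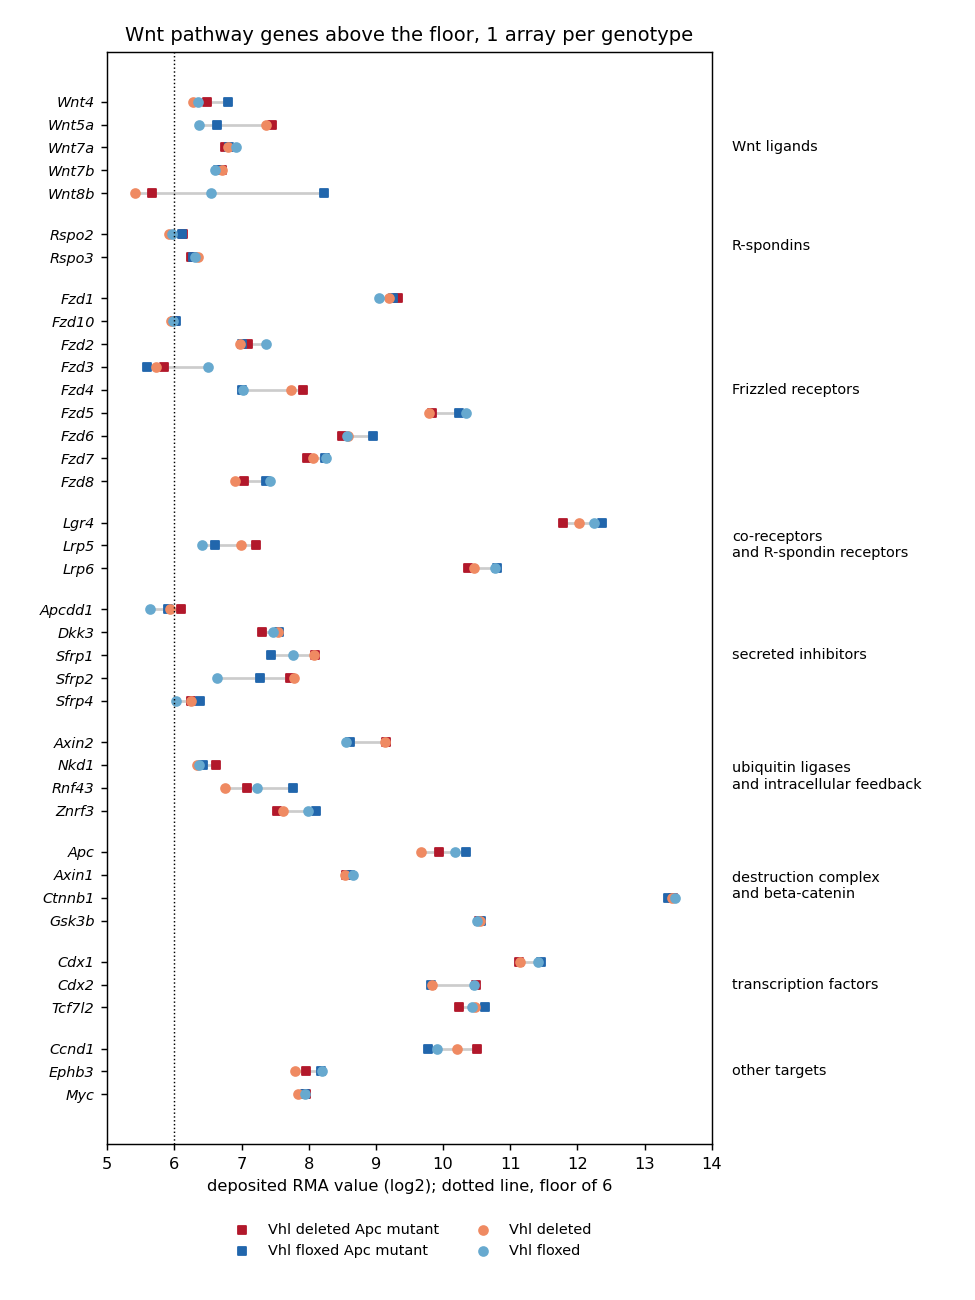
Deposited RMA values (log2, horizontal axis) of the 38 Wnt pathway genes above the floor, ordered by role, with 1 point per array and a grey line over the range of the 4 arrays. Wnt8b spans 5.41 to 8.22, the widest range of these genes, and Ctnnb1 lies between 13.35 and 13.45.

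At a 1.5-fold threshold, which is 0.585 on the log2 scale, 4 members were higher and 3 lower with Vhl deletion in the absence of the Apc mutation. The higher ones were Sfrp2, Wnt5a, Fzd4 and Axin2, and the lower ones Wnt8b, Fzd3 and Cdx2. Of all genes 6.22% were that much higher and 5.08% that much lower. Fzd3 passed the floor through the Vhl floxed array alone. With values under 6 raised to 6, Fzd3 came to -0.50 and Wnt8b to -0.54, both short of the threshold. In the presence of the Apc mutation 6 were higher, namely Fzd4, Wnt5a, Ccnd1, Cdx2, Sfrp1 and Lrp5, and 3 were lower, namely Wnt8b, Rnf43 and Lgr4. The shares of all genes were 7.19% and 5.15%. Wnt5a and Fzd4 were 1.5-fold higher in both backgrounds, beside 4.42% of all genes, and Wnt8b was lower in both, beside 2.73%. Lrp5, higher by 0.58 and 0.61, and Znrf3, lower by 0.38 and 0.58, lay just outside in 1 comparison each. These 2 Vhl comparisons share no array. The sign of the difference was the same in both for 25 of 38 members, or 65.8%, and for 75.9% of all genes.

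**Figure D2:**
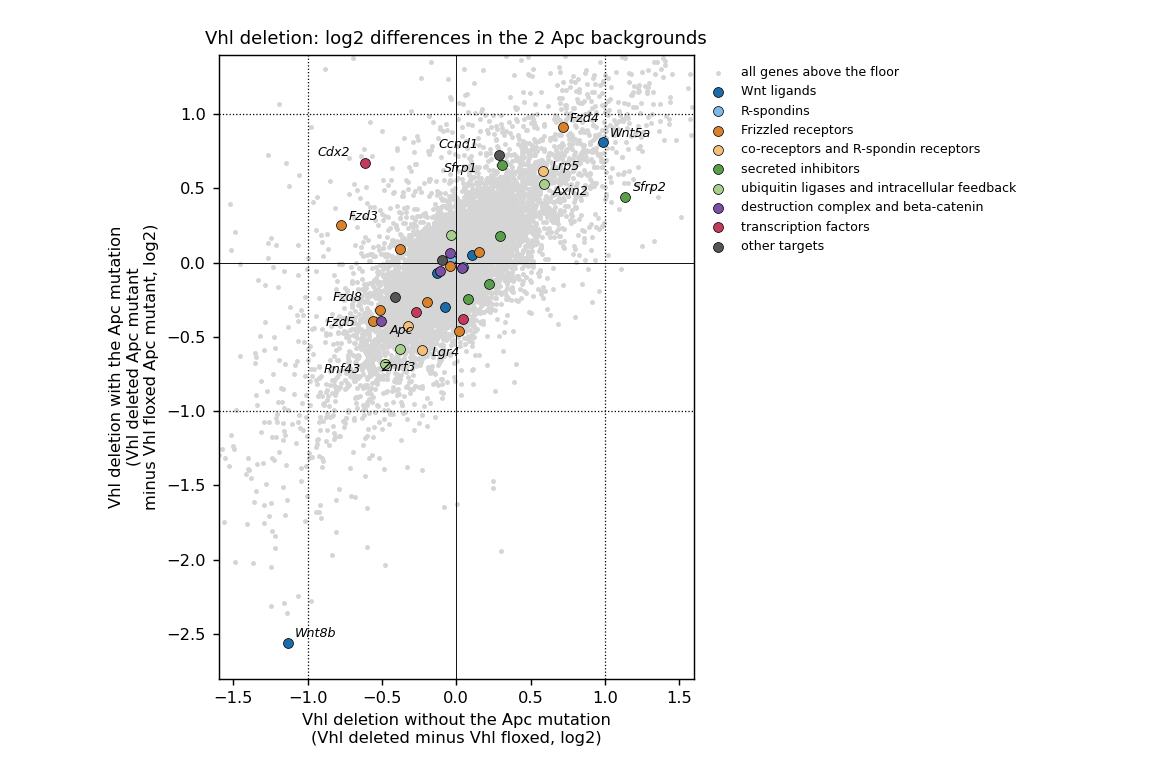
Log2 difference with Vhl deletion in mice without the Apc mutation (horizontal axis) and with it (vertical axis), for Wnt pathway genes coloured by role and all genes above the floor in grey. Genes beyond the axes are not drawn, and dotted lines mark 2-fold differences. Wnt5a, Fzd4, Lrp5 and Axin2 lie to the upper right, Wnt8b to the lower left, and Cdx2 has opposite signs.

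The sequences of 4 promoter windows are shown for members that the results turn on and that have an entry in the RefSeq promoter table. Wnt8b and Sfrp2 were 2-fold apart, Fzd4 was 1.5-fold higher in both backgrounds, and Axin2 is a feedback target that was higher in both. Each runs from 250 bases before a listed transcription start site to 50 bases after it, 5′ to 3′ on the strand of the gene, in build GRCm38.p6. That site is the first base of the RefSeq gene for Wnt8b and Fzd4, and lies 571 bases into it for Sfrp2 and 2521 bases into it for Axin2. Capitals mark the hypoxia response core, ACGTG or GCGTG on either strand. The Tcf/Lef core CTTTGA, also sought on both strands, was found in none of the 4.
Wnt8b, chr19:44493222-44493521, plus strand: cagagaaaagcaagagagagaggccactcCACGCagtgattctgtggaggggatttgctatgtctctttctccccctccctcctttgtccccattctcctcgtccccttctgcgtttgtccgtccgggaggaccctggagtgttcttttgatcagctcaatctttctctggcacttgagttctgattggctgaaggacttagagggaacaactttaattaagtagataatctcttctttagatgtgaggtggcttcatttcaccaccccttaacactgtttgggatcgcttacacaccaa
Sfrp2, chr3:83766071-83766370, plus strand: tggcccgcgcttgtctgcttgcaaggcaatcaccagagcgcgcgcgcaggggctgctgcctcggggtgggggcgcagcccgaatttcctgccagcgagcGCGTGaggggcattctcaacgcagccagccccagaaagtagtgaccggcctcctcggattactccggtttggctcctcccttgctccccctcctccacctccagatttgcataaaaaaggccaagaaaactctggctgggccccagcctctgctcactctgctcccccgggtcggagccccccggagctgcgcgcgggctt
Fzd4, chr7:89404116-89404415, plus strand: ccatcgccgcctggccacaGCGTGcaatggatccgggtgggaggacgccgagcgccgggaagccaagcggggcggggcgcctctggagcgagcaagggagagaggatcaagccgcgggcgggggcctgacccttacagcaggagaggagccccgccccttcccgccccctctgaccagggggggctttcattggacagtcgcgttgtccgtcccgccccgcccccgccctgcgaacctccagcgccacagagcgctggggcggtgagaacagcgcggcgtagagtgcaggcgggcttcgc
Axin2, chr11:108920099-108920398, plus strand: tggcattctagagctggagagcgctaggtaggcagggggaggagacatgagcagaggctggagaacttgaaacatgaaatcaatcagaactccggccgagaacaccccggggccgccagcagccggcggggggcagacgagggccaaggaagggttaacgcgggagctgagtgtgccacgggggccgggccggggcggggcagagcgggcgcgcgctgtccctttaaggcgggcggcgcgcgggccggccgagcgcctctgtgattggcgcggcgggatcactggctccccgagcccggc
The hypoxia core began 221 bases before the listed start site in Wnt8b, 151 bases before it in Sfrp2 and 231 bases before it in Fzd4, and these letters are not in the Axin2 window. The letters CACGTG hold ACGTG on both strands, and a window with any match was counted once. Promoter windows were listed for 18 of the 38 members, 21 windows in all. The hypoxia core was present in 14 of these windows (66.7%) and in 43.8% of all 32851 windows. The Ctnnb1 windows overlap and share the same match, and by gene 13 of the 18 members had the core. The Tcf/Lef core was present in 2 (9.52%), those of Fzd1 and Gsk3b, and in 16.0% of all windows. The windows of all genes were not limited to genes above the floor, as the member windows were, so these shares are of unlike sets. A match is a description of the letters and not a bound site.

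Among the ligands, 5 of 19 Wnt genes reached the floor. Wnt8b, a canonical ligand best known from the developing forebrain, read 5.66 in the Vhl deleted Apc mutant array and 5.41 in the Vhl deleted array, against 8.22 on the Vhl floxed Apc mutant array and 6.54 in the Vhl floxed array. The Vhl floxed Apc mutant array was thus the high one, and both Vhl deleted arrays lay under the floor. The Vhl differences were -2.56 with and -1.13 without the Apc mutation. They were -1.61 and -0.65 as the mean over its 3 probe sets, and -2.22 and -0.54 with values under 6 raised to 6. A further probe set, 1421439_at, read 4.28 and 4.02 in the Vhl deleted arrays with and without the Apc mutation, against 6.23 and 4.77 in the Vhl floxed arrays, the same order at a lower level. The last one, 1421440_at, stayed at 3.92 to 4.35, in the range of background. Hoxd10, Hoxd11 and Hoxd13, which pattern the hindgut along its length, peaked where Wnt8b did, in the Vhl floxed Apc mutant array, at 9.13, 7.43 and 11.08, against 5.38 to 6.77, 4.81 to 5.52 and 8.65 to 9.13 in the other arrays. These Hoxd genes were chosen after their values were seen, so the shared peak is not a test. Hoxd10 and Hoxd11 read higher in the Vhl deleted Apc mutant array, at 6.77 and 5.52, than in the Vhl floxed array, at 6.52 and 5.41. Hoxd13, at 9.05 and 9.13, and Wnt8b, at 5.66 and 6.54, read lower there. Position along the colon and genotype cannot be told apart with 1 array each.

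Wnt5a, a ligand of stromal cells best known for signalling that does not use beta-catenin, read 7.45 in the Vhl deleted Apc mutant array and 7.36 in the Vhl deleted array, against 6.64 on the Vhl floxed Apc mutant array and 6.37 in the Vhl floxed array. Both Vhl deleted arrays lay above both Vhl floxed arrays, by 0.81 with and 0.98 without the Apc mutation, which are 1.75-fold and 1.98-fold. All 3 of its probe sets above the floor shared that direction in both comparisons. The floor was not reached by Wnt5b, and Wnt4, Wnt7a and Wnt7b differed by at most 0.30 with Vhl deletion. For Wnt4 the 2 probe sets above the floor had opposite signs in both Vhl comparisons. The 14 ligands under the floor read 3.02 to 5.95 and differed by at most 0.54 in any comparison. They included Wnt2b, Wnt3 and Wnt9b, ligands known from the intestinal crypts of mice.

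**Figure D3:**
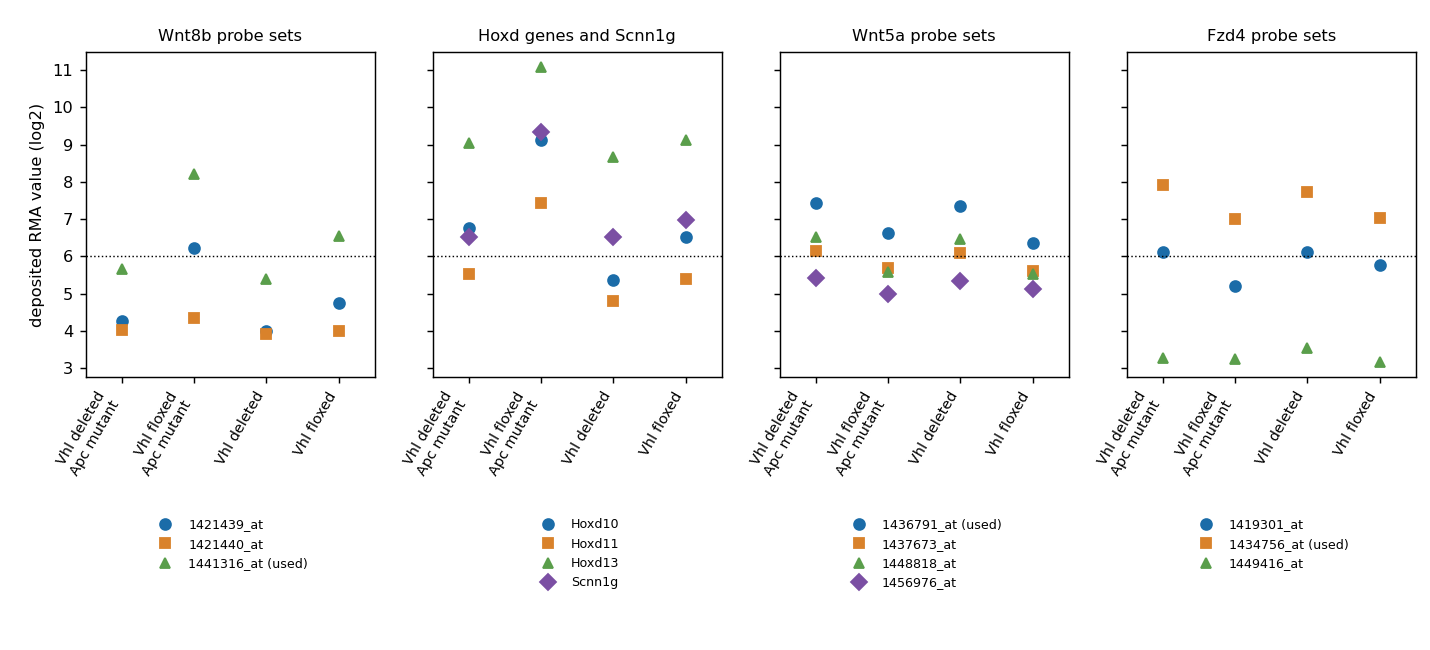
Deposited RMA values (log2, vertical axis) in the 4 arrays for all probe sets of Wnt8b, Wnt5a and Fzd4, and for the Hoxd genes and the sodium channel subunit Scnn1g, with the floor as a dotted line. The 2 brighter Wnt8b probe sets and the Hoxd genes peak in the Vhl floxed Apc mutant array, while the brighter Wnt5a and Fzd4 probe sets are higher in both Vhl deleted arrays.

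R-spondins stayed near the floor. Rspo3, a stromal R-spondin of the crypt base, read 6.25 and 6.35 in the Vhl deleted arrays with and without the Apc mutation, against 6.28 and 6.30 in the Vhl floxed arrays. Rspo2 read 5.92 to 6.13 in all arrays. Rspo1 and Rspo4 stayed between 3.60 and 4.84. Those above the floor differed by at most 0.21 in any comparison.

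Of 10 Frizzled receptors 9 reached the floor. Fzd4, the receptor of Norrin that is needed for vessel growth in the retina, read 7.92 in the Vhl deleted Apc mutant array and 7.74 in the Vhl deleted array, against 7.004 on the Vhl floxed Apc mutant array and 7.02 in the Vhl floxed array. The differences were 0.91 with and 0.72 without the Apc mutation, and both probe sets above the floor were higher in each comparison. Endothelial markers moved the same way. All 12 were higher in both comparisons, as were 4101 of all 11871 genes. Median differences were 0.77 with and 1.16 without the Apc mutation. The mean of these markers was 7.72 and 7.81 in the Vhl deleted arrays, against 6.77 and 6.61 in the Vhl floxed arrays, in that order. Their part in the Fzd4 difference was not tested, and in scraped tissue more cells of a type and more RNA per cell cannot be told apart.

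Fzd5, a receptor of the crypt epithelium, read 9.84 and 9.79 in the Vhl deleted arrays with and without the Apc mutation, against 10.23 and 10.35 in the Vhl floxed arrays. It was lower in both comparisons, by 0.39 and 0.56, but its dimmer probe set was higher with the Apc mutation. Fzd8 was lower by 0.32 with and 0.52 without the Apc mutation. Fzd6 differed by -0.46 with and 0.02 without it. Fzd3 passed the floor through the Vhl floxed array alone, at 6.50, against 5.59 to 5.84 in the others, and the other 5 of its 6 probe sets stayed under the floor. Fzd1, Fzd2, Fzd7 and Fzd10 differed by less than the 1.5-fold threshold in each comparison.

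The 2 Lrp co-receptors moved in opposite directions. Lrp5 read 7.22 in the Vhl deleted Apc mutant array and 6.99 in the Vhl deleted array, against 6.61 on the Vhl floxed Apc mutant array and 6.41 in the Vhl floxed array. Lrp6 read 10.38 and 10.45 in the Vhl deleted arrays with and without the Apc mutation, against 10.80 and 10.78 in the Vhl floxed arrays. Its differences were -0.43 and -0.33, shared by both of its probe sets, while Lrp5 has a single probe set. Lgr4, the R-spondin receptor expressed broadly along the crypt, was lower by 0.59 with and 0.23 without the Apc mutation. Lgr5, its relative restricted to stem cells and counted here with further targets outside the 65 members, read 10.25 and 10.05 in the Vhl deleted arrays against 7.71 and 7.51 in the Vhl floxed arrays.

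Secreted inhibitors above the floor had median differences of 0.18 with and 0.29 without the Apc mutation. Both medians are the values of Apcdd1, which passed the floor through the Vhl deleted Apc mutant array alone. With values under 6 raised to 6, its differences were 0.09 with and 0.00 without the Apc mutation. Sfrp2, a stromal antagonist that binds Wnt proteins, read 7.72 in the Vhl deleted Apc mutant array and 7.77 in the Vhl deleted array, against 7.28 on the Vhl floxed Apc mutant array and 6.64 in the Vhl floxed array. The low Vhl floxed array set the 2-fold call, since the difference was 1.14 without and 0.44 with the Apc mutation. Sfrp1 was higher by 0.66 with and 0.30 without it, and all 4 probe sets above the floor agreed in direction in both comparisons. Of the fibroblast markers, 8 of 12 were higher with and 11 of 12 without the Apc mutation, beside 46.5% and 46.6% of all genes. Their medians were 0.17 and 0.31. Pdgfra, the receptor of stromal cells next to the epithelium, was higher by 0.70 and 0.78, and the collagen gene Col1a1 by 0.18 and 0.54. The 4 that were lower with the Apc mutation were Lum, by 0.91, Dcn, by 0.42, Vim, by 0.20, and Col3a1, by 0.13, and of these Lum was also lower without it, by 0.10. All 12 smooth muscle markers were lower in both comparisons, as were 4913 of all 11871 genes. Their medians were -0.43 with and -0.62 without the Apc mutation. Of 10 macrophage markers, 9 were higher with and 10 without it, with medians of 0.32 and 0.80. The part of these cell types in the Wnt5a, Sfrp1 and Sfrp2 differences was not tested.

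Sfrp4, Dkk3 and Apcdd1 differed by at most 0.29 with Vhl deletion. The sign of Sfrp4 and of Dkk3 was not shared between the backgrounds. Apcdd1, an inhibitor at the cell membrane, was above the floor in the Vhl deleted Apc mutant array alone, at 6.09. The inhibitors Dkk1, Dkk2, Dkk4, Notum, Sfrp5 and Wif1 read 3.18 to 5.61. Notum, which removes the lipid that Wnt proteins need, read 5.08 and 4.71 in the Apc mutant arrays with deleted and floxed Vhl, against 4.76 and 5.00 in the arrays without the mutation.

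The feedback genes were split. Axin2, a target of the pathway that restrains it, read 9.14 in the Vhl deleted Apc mutant array and 9.14 in the Vhl deleted array, against 8.62 on the Vhl floxed Apc mutant array and 8.55 in the Vhl floxed array. It was higher by 0.53 and 0.59, on 1 probe set, since the other stayed under the floor. Rnf43 read 7.09 and 6.75 in the Vhl deleted arrays with and without the Apc mutation, against 7.77 and 7.23 in the Vhl floxed arrays. Znrf3 read 7.52 and 7.61 in the Vhl deleted arrays against 8.11 and 7.99 in the Vhl floxed arrays. Both ligases were thus lower with Vhl deletion in each background, by 0.68 and 0.48 for Rnf43, although they are known as targets of the same pathway as Axin2. Nkd1, a target that binds Dishevelled, differed by 0.19 with and -0.04 without the Apc mutation.

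Of the destruction complex genes and beta-catenin, Apc differed most. Apc read 9.94 in the Vhl deleted Apc mutant array and 9.67 in the Vhl deleted array, against 10.33 on the Vhl floxed Apc mutant array and 10.17 in the Vhl floxed array. The differences were -0.39 with and -0.51 without the Apc mutation, and -0.25 and -0.25 as the mean over its probe sets. All 4 of its probe sets were lower in both Vhl comparisons. The Min mutation changes a single base, so the level of Apc does not check the Apc label. Ctnnb1, which encodes beta-catenin, differed by 0.07 with and -0.04 without the Apc mutation. Gsk3b differed by -0.04 and 0.04, and Axin1 by -0.06 and -0.11. In a wider list of this complex with its kinases and Dishevelled genes, 0 of 15 genes above the floor were 2-fold apart, where 4.35% of all genes with and 3.88% without the Apc mutation were. Of the 15, 13 with and 12 without the mutation had a difference under 0, as did 53.5% and 53.3% of all genes.

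Of the transcription factors, Tcf7l2, the main Tcf factor of intestinal epithelium, differed by -0.38 with and 0.04 without the Apc mutation. Cdx1, a homeobox factor of intestinal identity, was lower by 0.33 and 0.27. Cdx2, its relative that specifies intestine, read 10.49 in the Vhl deleted Apc mutant array and 9.84 in the Vhl deleted array, against 9.82 on the Vhl floxed Apc mutant array and 10.46 in the Vhl floxed array. Lef1, Prox1 and Sp5, which mark strong pathway activity in intestinal tumours, read 3.87 to 5.16 in all arrays. Ccnd1, the G1 cyclin, was higher by 0.72 with and 0.29 without the Apc mutation, on all 3 probe sets. All 16 proliferation genes above the floor were higher too, with medians of 0.82 and 0.69, where 46.5% and 46.6% of all genes were higher, and their part in the Ccnd1 difference was not tested. Myc differed by 0.02 and -0.10, and Ephb3, a receptor that positions cells in the crypt, by -0.23 and -0.41. Tnfrsf19 read 4.72 to 5.11, under the floor.

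Other genes of the pathway gave larger differences in a few cases. Among 12 nuclear effectors and partners above the floor, of 15 with a probe set, 1 was 2-fold or more higher with Vhl deletion in Apc mutant mice, beside 2.82% of all genes, and 2 were lower, beside 1.52%. Without the mutation 0 were, beside 2.27% of all genes higher and 1.6% lower. Tle4, a corepressor of Tcf factors, was lower by 1.17 with and 0.82 without the Apc mutation. Tcf7l1 was lower by 1.01 and 0.36, and Bcl9, a coactivator of beta-catenin, was higher by 1.08 and 0.45. Among receptors, Ror1, which binds Wnt5a, read 7.14 and 7.32 in the Vhl deleted arrays with and without the Apc mutation, against 8.52 and 8.23 in the Vhl floxed arrays. Wls, the carrier that takes Wnt proteins to the cell surface, was lower by 0.33 and 0.40. Among 13 further intestinal targets above the floor, of 14 with a probe set, 2 were 2-fold or more higher and 1 lower with the Apc mutation, and 3 higher and 1 lower without it, beside the same shares of all genes. Apart from Lgr5 the higher ones were Id2, by 1.12 and 1.44, and, in mice without the Apc mutation, Birc5 by 1.01. The lower one was Sox9, by 1.18 and 1.22. Birc5 is also a proliferation gene.

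**Figure D4:**
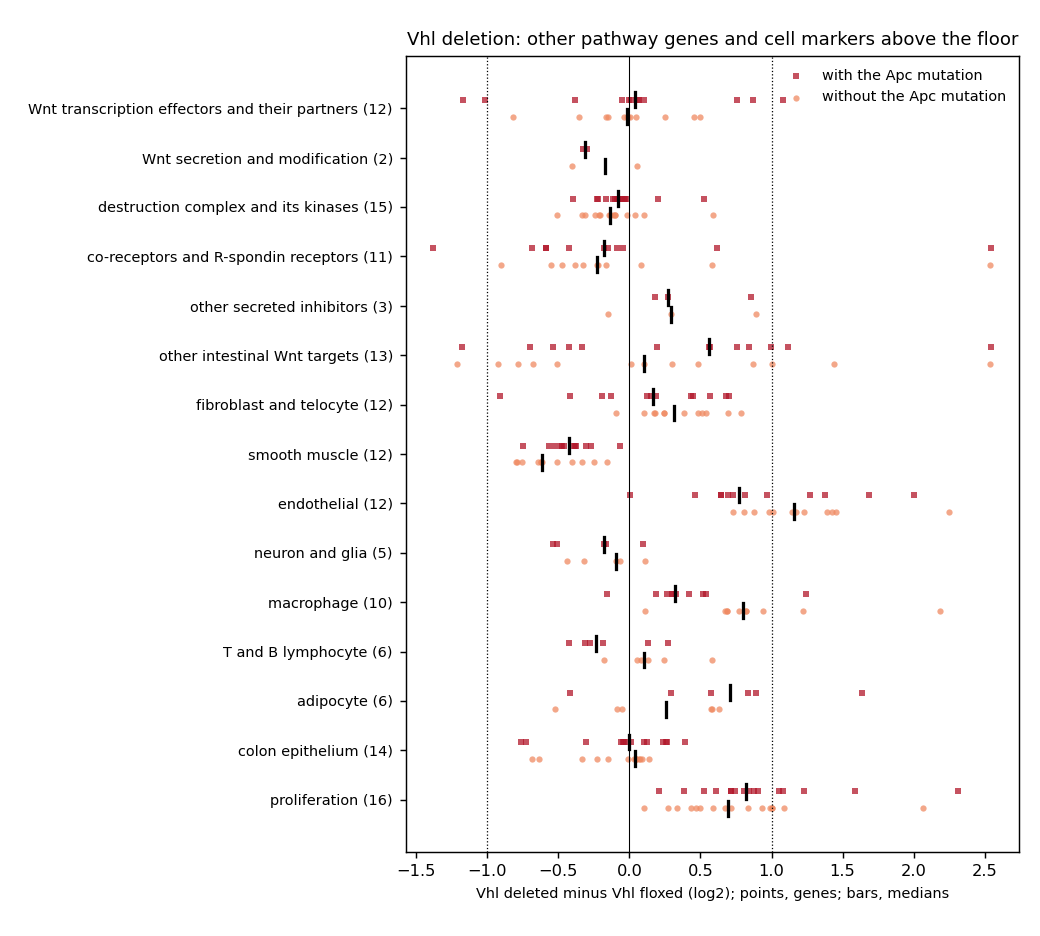
Log2 difference with Vhl deletion (horizontal axis) for genes of other pathway lists and cell markers above the floor, with and without the Apc mutation, the number of genes in brackets, black bars at the medians and dotted lines at 2-fold. Hepatocyte markers are not drawn. Endothelial and proliferation genes lie mostly to the right, smooth muscle markers to the left, and the Wnt lists on both sides of 0.

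The Apc mutation went with few differences in these genes. In mice with floxed Vhl, Wnt8b was at least 2-fold higher, by 1.68, beside 0.118% of all genes, and 0 of 38 members were lower, beside 0.901%. In mice with deleted Vhl 0 members were at least 2-fold apart, beside 0.202% of all genes higher and 0.118% lower. The median difference of the members was 0.06 with deleted and 0.05 with floxed Vhl, against 0.00 for all genes in both. These comparisons share no array, and the sign of the difference was the same in both for 15 of 38 members, or 39.5%, and for 58.5% of all genes. Axin2 differed by 0.01 with deleted and 0.07 with floxed Vhl, and Lgr5 by 0.21 and 0.20. Rnf43 was higher by 0.33 and 0.54, and Nkd1 by 0.28 and 0.06. Myc differed by 0.11 and -0.01 and Ctnnb1 by 0.01 and -0.10.

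At the 1.5-fold threshold, Cdx2 alone was higher with deleted Vhl, beside 0.724% of all genes, and 0 members were lower, beside 0.792%. With floxed Vhl, Wnt8b and Sfrp2 were higher, beside 1.05%, and Fzd3 and Cdx2 lower, beside 2.36%. Fzd3 came to -0.50, short of the threshold, with values under 6 raised to 6. Every difference with floxed Vhl, that of Wnt8b included, is taken from the Vhl floxed array, which holds the hepatocyte transcripts. The part of liver RNA in these differences was not tested. The labels give no count of tumours in these mice.

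**Figure D5:**
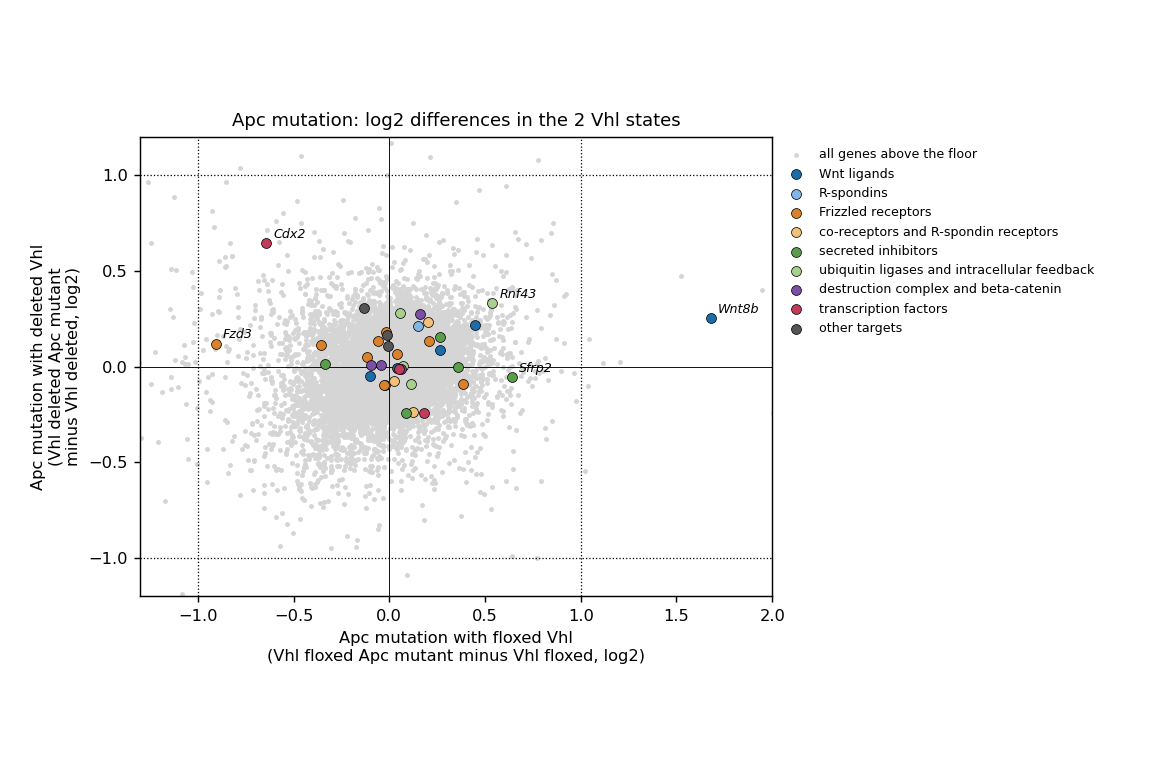
Log2 difference with the Apc mutation in mice with floxed Vhl (horizontal axis) and with deleted Vhl (vertical axis), for Wnt pathway genes coloured by role and all genes above the floor in grey. Genes beyond the axes are not drawn, and dotted lines mark 2-fold differences. Wnt8b at 1.68 on the horizontal axis is the member outside the dotted lines, and Cdx2 has opposite signs.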

How the data were processed

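Colon mucosa RNA of 4 genotypes was measured on 1 array each. The authors deposited 1 log2 value per probe set and array for 45101 probe sets, for which the submitters' processing notes name affy and RMA without versions. RMA corrects background, quantile normalizes and summarises probes, so a change common to most transcripts is removed, and differences near background understate the true fold. Of 41 bacterial control probe sets, 40 stayed at or under 5.10, and the BioD 3′ set read 7.40 to 7.51. Array medians were 6.05 to 6.07.

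Genes were named from the platform annotation of GEO, with probe sets of several symbols left out. Differences are 1 array minus another. Genes were counted at 2-fold, with no test. Promoters came from RefSeq (GRCm38.p6). Named genes were members 2-fold apart, the 5 with the largest difference per role, all of roles with 6 or fewer members, Apc, Ctnnb1, Axin2, Lgr5 and Vhl, and listed genes 2-fold apart. Others are context, chosen after their values were seen. Members and lists were chosen with earlier results of these data known. Alternatives were no floor, a floor of 7, values under 6 raised to 6, the mean over probe sets, no cross-hybridising probe sets, cyclic loess and a 1.5-fold threshold. Counting was tested on simulated data. The tools were limma 3.58.1 in R 4.3.3, and pandas 2.3.3, numpy 2.4.6 and matplotlib 3.10.9 in Python 3.11.15.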

Additional observations from a re-analysis of the deposited data

Results flagged for a closer look

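Cdx2 stood out because its difference had opposite signs in the 2 backgrounds, at least 1.5-fold each way. With Vhl deletion it differed by 0.67 in mice with the Apc mutation and by -0.62 in mice without it. With the Apc mutation it differed by 0.64 in mice with deleted Vhl and by -0.64 in mice with floxed Vhl. Both pairs of differences come from the same 4 array values, so the second pair is not a separate observation. Both of its probe sets shared these signs. Each contrast rests on 1 array per genotype, and the difference between backgrounds was not tested.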

How the results depend on the processing

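No paired analysis was possible because each genotype has 1 array and the result comes from no test. Of 38 members, 2 were at least 2-fold apart with Vhl deletion without the Apc mutation, and 1 when values under 6 were raised to 6 or probe sets were averaged, which took Wnt8b out. The count in both Vhl comparisons was then 0 in place of 1. Averaging left 30 members above the floor, and Fzd4 was not among them. At 1.5-fold the counts for Vhl deletion were 7 without and 9 with the Apc mutation, and 3 in both. For the Apc mutation they were 4 with floxed and 1 with deleted Vhl. The counts of 7 and 4 hold Fzd3, which came to -0.50 in each with values under 6 raised to 6. Wnt8b, in the counts of 7 and 3, came to -0.54 without the Apc mutation in that setting. Cyclic loess normalization gave 3 without the Apc mutation, where Wnt5a came to 1.03. The counts of members 2-fold apart were otherwise as reported without a floor, at a floor of 7, without cross-hybridising probe sets and with cyclic loess. They were over 65 members without a floor, 28 at a floor of 7 and 35 without cross-hybridising probe sets. The member median for Vhl deletion with the Apc mutation was -0.15 at a floor of 7. Averaging probe sets moved some Vhl differences by over 1.5 times, with the Apc mutation to 0.32 for Axin2, -0.12 for Lgr4, -0.01 for Fzd5, -0.28 for Fzd6 and -0.31 for Znrf3, and without it to 0.32 for Axin2, 0.65 for Wnt5a, -0.39 for Lgr4 and -0.24 for Znrf3. Dim signals, such as most Wnt ligands, limit what the arrays can show.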
